A study of Homo sapiens with 6 samples.

Results

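The genomic regions described here are 621 SON peaks of untreated IMR90 cells that were missing after 3 days of treatment and present after 6 days. They are the lines of the untreated SON peak list on chromosomes 1 to 22 and X that overlapped a line of the 6-day list by at least 1 bp and overlapped no line of the 3-day list. The untreated list held 22216 peaks on these chromosomes, so the rule took 2.8% of them (95% exact Clopper-Pearson interval 2.58 to 3.02%). The regions were selected on their presence or absence in the 3 SON lists, and the values of these lists are therefore given as a description with no test.

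IMR90 is a human fibroblast line from embryonic lung. SON and HMGB2 were mapped by ChIPmentation, in which a transposase adds sequencing adapters to chromatin while an antibody holds it on beads. The 3 SON groups were untreated cells and cells after 3 or 6 days of a treatment that the labels name ICM and do not expand, and HMGB2 was mapped in untreated cells. Fixation used formaldehyde alone for SON, and the longer crosslinker EGS followed by formaldehyde for HMGB2.

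SON is a large scaffold protein at the core of nuclear speckles, bodies in which splicing factors are concentrated and beside which many active, gene-rich stretches of chromosomes lie. HMGB2 is a chromatin protein of the high mobility group that binds and bends DNA with little sequence preference, and its level is known to fall early as cells enter senescence. A SON peak reports chromatin that can be crosslinked to SON or its partners, directly or through other proteins.

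One list stood for each group, so no difference between groups has a replicate check and none was tested. The untreated, 3-day and 6-day SON lists held 22362, 11158 and 5583 lines, and the HMGB2 list held 6013. The lists hold no read counts, and the sequencing depth behind them is unknown, so a missing line cannot be told apart from a peak that the list was too shallow to hold. Strength below is the authors' −log10 p of a peak, which in the SON lists is the lower of the values of 2 replicates, and it ranks peaks within a list. The irreproducible discovery rate (IDR) in these lists is the authors' global IDR, which is lower where a peak ranked both high and alike in the replicates. A weak peak can thus hold the largest IDR of its list even where its replicate values are equal. Exact intervals cover counting error only, at 95%.

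Of the 621 regions, 16 met the 250 bases upstream of an annotated start of a protein-coding gene, and these 16 met 21 upstream windows of 19 genes. The sequences of 6 of those windows are shown because they are the promoter-level examples of a class that lay mostly away from gene ends. They were chosen after their values were seen. The first 5 windows lay wholly inside regions with an untreated strength above 20. From each divergent pair of genes 1 window was taken. For THOC5, which has another annotated start in the same region, 1 window was taken too. The sixth belongs to the promoter region with the highest 6-day strength. The sequences are from RefSeq on GRCh38.p14, written 5′ to 3′ on the strand of the gene, and they end at the base before the start. Capitals mark each match, on either strand, to CCAAT (the CCAAT box bound by NF-Y), GGGCGG (SP and KLF proteins), CCGGAA (ETS proteins), TGACG (the core of the cAMP response element), CACGTG (an E-box) or TGANTCA (AP-1), and none of these overlap in the windows shown.
THOC5, chr22:29553758-29554007, minus strand: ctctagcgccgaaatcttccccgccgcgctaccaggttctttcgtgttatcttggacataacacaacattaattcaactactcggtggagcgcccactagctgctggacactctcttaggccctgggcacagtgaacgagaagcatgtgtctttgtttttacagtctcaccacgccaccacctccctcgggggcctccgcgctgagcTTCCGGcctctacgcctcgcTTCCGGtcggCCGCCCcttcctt
BLM, chr15:90717096-90717345, plus strand: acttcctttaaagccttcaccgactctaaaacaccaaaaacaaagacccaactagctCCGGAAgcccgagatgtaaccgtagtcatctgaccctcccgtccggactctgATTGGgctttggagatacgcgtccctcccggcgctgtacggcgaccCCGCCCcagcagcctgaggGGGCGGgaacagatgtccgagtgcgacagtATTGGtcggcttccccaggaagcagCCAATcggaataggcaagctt
MAP3K7, chr6:90587073-90587322, minus strand: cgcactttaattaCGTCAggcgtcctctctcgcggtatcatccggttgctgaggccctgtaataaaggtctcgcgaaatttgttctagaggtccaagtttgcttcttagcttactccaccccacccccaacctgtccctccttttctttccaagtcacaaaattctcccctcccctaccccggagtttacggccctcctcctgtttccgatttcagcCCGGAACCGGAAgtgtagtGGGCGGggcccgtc
VPS50, chr7:93232116-93232365, plus strand: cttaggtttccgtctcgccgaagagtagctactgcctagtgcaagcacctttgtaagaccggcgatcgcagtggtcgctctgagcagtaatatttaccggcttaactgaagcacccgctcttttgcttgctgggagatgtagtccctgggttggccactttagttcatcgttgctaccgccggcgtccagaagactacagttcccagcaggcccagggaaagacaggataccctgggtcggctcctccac
TSPYL1, chr6:116279931-116280180, minus strand: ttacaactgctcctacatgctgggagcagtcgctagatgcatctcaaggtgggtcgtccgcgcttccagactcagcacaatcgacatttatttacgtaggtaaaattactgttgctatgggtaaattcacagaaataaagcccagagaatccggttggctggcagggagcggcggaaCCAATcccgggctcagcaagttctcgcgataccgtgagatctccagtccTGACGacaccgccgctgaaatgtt
CD68, chr17:7579388-7579637, plus strand: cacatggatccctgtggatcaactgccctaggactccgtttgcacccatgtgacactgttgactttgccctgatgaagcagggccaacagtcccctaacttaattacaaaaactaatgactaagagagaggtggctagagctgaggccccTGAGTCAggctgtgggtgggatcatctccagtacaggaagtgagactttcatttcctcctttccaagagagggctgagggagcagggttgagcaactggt

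THOC5 encodes a subunit of the THO complex of mRNA export, and its window shown held 2 ETS matches and 1 SP/KLF match. The overlapping window of its other start, not shown, held 3 ETS matches and 1 SP/KLF match. BLM encodes a RecQ helicase that resolves recombination intermediates, and its window held 3 CCAAT boxes, 2 SP/KLF matches and 1 ETS match. MAP3K7 encodes a kinase of the TGF-beta and NF-kappa-B pathways, and its window held 2 adjoining ETS matches, 1 SP/KLF match and 1 TGACG. The VPS50 window held no match, which says only that these letters are not in it. The TSPYL1 window held 1 CCAAT box and 1 TGACG. CD68 encodes a lysosomal glycoprotein abundant in macrophages, and its window held 1 AP-1 match.

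Over the 21 windows, CCAAT was found in 11 (52.4%), against 32.7% of the 22012 upstream windows of the whole promoter table. GGGCGG was found in 52.4% against 53.7%, TGACG in 33.3% against 24.1%, CCGGAA in 23.8% against 17.9%, CACGTG in 9.52% against 7.35%, and TGANTCA in 4.76% against 5.36%. Windows met by the other untreated SON peaks, in the order present at neither time, present at 3 days and missing at 6, and present at both times, held CCAAT in 36.3%, 41.1% and 47.6% and GGGCGG in 68.7%, 71.5% and 69.6%. They held TGACG in 35.1%, 36.5% and 39.0%, CCGGAA in 32.9%, 30.7% and 31.1%, CACGTG in 9.23%, 9.74% and 10.7%, and TGANTCA in 3.85%, 3.41% and 3.17%. For TGACG and CCGGAA the shares in the windows of the regions lay between those of the whole table and of the other SON peaks. They are 7 and 5 of 21 windows, met by 16 regions, so no order between the classes can be read from them. A CTCF core motif, searched by its name on both strands, was in 0 of the 21 windows and in 0.75% of the table. The median GC content of the 21 windows was 56.4%, with single windows between 34% and 72.4%. In the other 3 classes, in the same order, the median was 65.2%, 65.2% and 63.6%. The windows of the 621 regions were few, overlapped within divergent pairs, and are a description of the letters at these starts. No region overlapped any of 1562 annotated miRNA hairpins.

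The untreated list divided into 4 classes by the 2 later lists. Beside the 621 regions, 11501 peaks were present at neither time, 5851 were present at 3 days and missing at 6, and 4243 were present at both times. Of all untreated peaks 21.9% were present at 6 days, and the 621 were 12.8% (11.8 to 13.7%) of those 4864. Of all untreated peaks 54.6% were missing at 3 days, and the 621 were 5.12% (4.74 to 5.53%) of those 12122. Each region met exactly 1 line of the 6-day list, and 621 different lines were met. In 4 cases that 6-day line itself reached a 3-day line beyond the edge of the untreated peak.

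The regions were of middling strength before treatment. Their untreated strength had a median of 9.38 (interval 8.95 to 9.70), quartiles of 7.17 and 12.6, and a range of 3.76 to 32.0. The median was 7.89 in peaks present at neither time, 12.7 in peaks present at 3 days and missing at 6, and 21.5 in peaks present at both times. Their median place in the untreated list was the 46.2nd percentile, and their median width was 389 bp against 355, 463 and 540 bp in those 3 classes. With the untreated list cut into 5 equal classes from weakest to strongest, 130, 140, 155, 151 and 45 regions were found. As a share of the untreated peaks present at 6 days in the same class, they were 51.2%, 39.7%, 27.3%, 14.8% and 1.69%. Thus among the weakest untreated peaks that were present at 6 days about as many were missing at 3 days as were present, and among the strongest nearly all were present at both times.

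**Figure D1:**
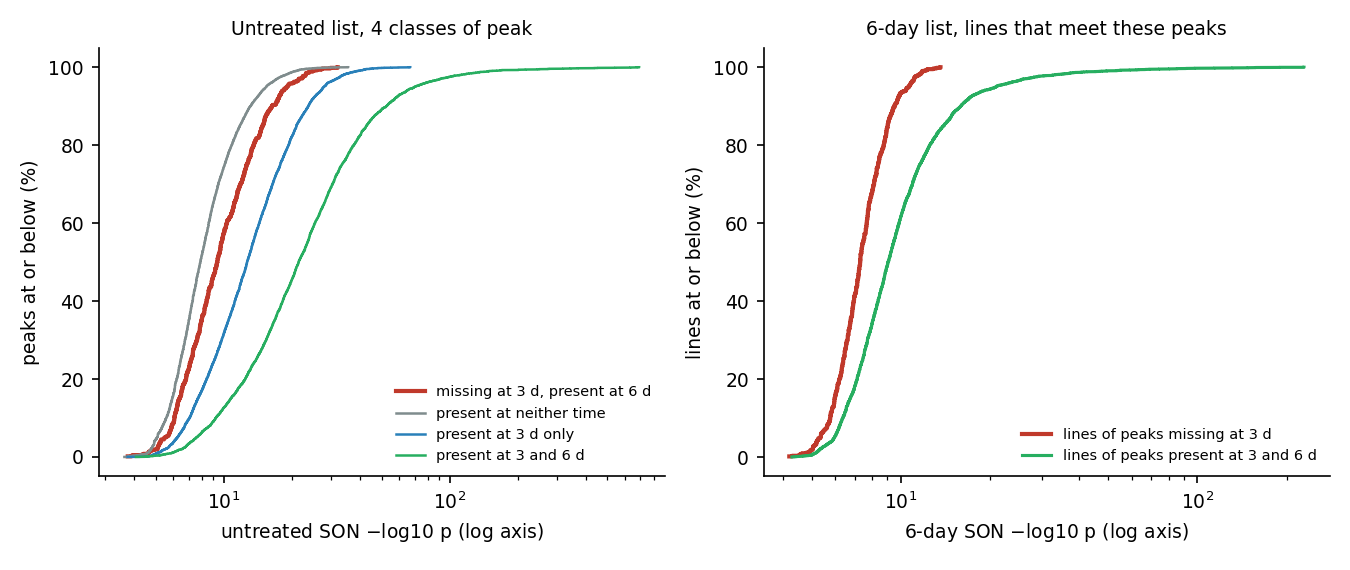
Cumulative share of peaks (vertical axis, %) by the authors' SON −log10 p on a log axis, for the 4 classes of untreated peaks (left) and for the 6-day lines that met the 621 regions or the peaks present at both times (right). The red curve of the 621 regions lies between the peaks present at neither time and those present at 3 days and missing at 6 on the left, and ends at 13.6 on the right where the green curve runs on to 229.

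At 6 days the lines that met the regions were among the weaker of their list. Their 6-day strength had a median of 7.29 (7.18 to 7.40), quartiles of 6.39 and 8.37 and a range of 4.21 to 13.6, and their median place was the 29.2nd percentile of the 6-day list. The 4254 lines that met peaks present at both times had a median of 9.05 and reached 229. Of the 6-day lines of the regions, 431 (69.4%, 65.6 to 73.0%) sat at the largest global IDR of the 6-day list, 0.63, against 30.6% of the lines of peaks present at both times. A 6-day IDR of at most 0.05 was held by 15% of all 6-day lines, by 816 (19.2%) of the lines of peaks present at both times, and by 3 (0.483%) of the lines of the regions. In the untreated list 59.7% of all peaks had an IDR of at most 0.05, and 345 of the regions (55.6%) did. The regions were thus listed with an IDR near that of the whole list before treatment, and with IDRs at the upper end of the list at 6 days.

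Across the regions the strengths at the 2 times were nearly unrelated, over a narrow range of 6-day values (quartiles 6.39 and 8.37). No such value is given for peaks present at both times, so this is not shown to be particular to the regions. Spearman's rho across the 621 regions between the untreated and the 6-day strength was 0.05, where the points share position and the selection by the rule. Between the 2 replicate values rho was 0.84 in the untreated list and 0.39 at 6 days. The replicate values were identical for 289 regions (46.5%) in the untreated list, where 56.0% of all lines have identical values, and for 101 (16.3%) at 6 days, where 9.47% do, so these are not correlations of 2 independent measurements throughout. The larger of the replicate values was a median of 1.03 times the smaller in the untreated list and 1.16 times at 6 days. In 162 regions the 6-day value was above the untreated one, though the lists may differ in depth and the values are not on a common scale.

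The intervals of the 2 lists lay close together. The summits were a median of 35 bp apart, with 561 of the 621 pairs within 100 bp. In 618 regions the overlap covered at least 50% of the shorter interval, and the median overlap was 321 bp.

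The regions strongest before treatment included those over the starts of THOC5 and BLM. The strongest was a region of 514 bp over an end of TRIOBP, an actin-binding protein gene, on chromosome 22 (37776274 to 37776787), with 32.0 in both untreated replicates and 8.45 and 7.89 in the 6-day replicates. A region inside GPR176, an orphan receptor gene, lay 1.15 kb from its start on chromosome 15 (39918674 to 39919119), with 29.6 in both untreated replicates and 8.72 and 6.43 at 6 days. The region over the THOC5 start on chromosome 22 (29553649 to 29554007), whose sequence is given above, had 27.3 and 27.4 before treatment and 11.6 and 8.43 at 6 days. These 3 stood at the 94.1st, 93.0th and 91.5th percentiles of the untreated list and at the 40.1st, 14.4th and 48.8th of the 6-day list, and in each the replicate values were farther apart at 6 days.

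The region over the start of BLM on chromosome 15 (90717038 to 90717500) had 26.99 in both untreated replicates and 7.53 and 8.07 at 6 days. It was also overlapped by an HMGB2 peak with a fold enrichment of 5.83 in the authors' list, and the nearest 3-day SON line was 124 kb away. A region within ADHFE1, a gene for a mitochondrial transhydrogenase, on chromosome 8 (66456120 to 66456636) had 25.9 and 26.5 before treatment and 8.88 and 6.99 at 6 days. The last of the 6 strongest lay in the noncoding gene EFCAB13-DT, 1.73 kb from an end of the integrin gene ITGB3, on chromosome 17 (47315472 to 47315997), with 25.1 in both untreated replicates and 15.7 and 10.4 at 6 days.

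The regions strongest at 6 days were other ones. The highest 6-day value belonged to a region inside BPTF, which encodes the largest subunit of the NURF chromatin remodeller, on chromosome 17 (67978509 to 67979007), with 13.8 and 13.9 in the untreated replicates and 13.6 and 14.1 at 6 days. A region inside WARS1, the tryptophanyl-tRNA synthetase gene, on chromosome 14 (100341362 to 100341720) had 9.69 and 10.7 before treatment and 15.4 and 13.2 at 6 days. A region inside SVEP1, a gene for an extracellular matrix protein, on chromosome 9 (110443543 to 110443822) had 5.85 and 8.02 before treatment and 13.5 and 12.9 at 6 days. These 3 are the regions with a 6-day IDR of at most 0.05, and none of them met HMGB2 or lay within 5 kb of a gene end. The SVEP1 region is also 1 of the closest to the rule's boundary, since a 3-day line with a strength of 7.52 began 113 bp from it, and its untreated and 6-day summits were 440 bp apart.

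Of the other 3, 1 lay in the noncoding gene LOC105371024 on chromosome 15 (6-day strength 12.3), 1 on chromosome 13 in LOC105370263, 367 kb from the nearest protein-coding gene end at KCTD12 (12.2), and 1 inside MLIP, a muscle gene whose product binds lamin A/C, on chromosome 6 (12.1). By the mean of the percentiles in both lists, the highest regions lay at PIH1D1 (84.5), in EFCAB13-DT (81.1), in the noncoding genes LINC02410 and SNRPF-DT (80.5), inside DPF3, a subunit gene of the BAF remodellers (79.1), inside BPTF (78.5), and 35.1 kb from an end of the fibrillin gene FBN1 (78.3). Of these 6, the PIH1D1 region lay over a gene end and was the one met by HMGB2.

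The nearest 3-day line was usually far away. The median distance was 40.7 kb, against 45.6 kb for untreated peaks present at neither time. A 3-day line lay within 1 kb of 21 regions (3.38%, 2.11 to 5.12%), within 10 kb of 111 (17.9%) and within 100 kb of 472 (76.0%), against 2.76%, 15.6% and 72.3% of peaks present at neither time. The distances of the 2 classes that were missing at 3 days thus nearly coincided.

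Just inside the rule, the region nearest to a 3-day line lay on chromosome 1 (148774134 to 148774444), 4 bp from it, with a strength of 6.84 before treatment and 7.67 at 6 days. The SVEP1 region, at 113 bp, was also among the 3 nearest. On the other side of the rule, the smallest overlaps with a 3-day line among untreated peaks present at 6 days were 191, 193 and 195 bp. They belonged to peaks in TYW1B on chromosome 7 (72784173 to 72784381), COQ10B on chromosome 2 (197453812 to 197454018) and FNBP4 on chromosome 11 (47724077 to 47724318). These peaks were narrow, and each overlap covered most of its peak. No peak present at both times overlapped its 3-day line by under 50 bp, so few regions turn on the width of the overlap.

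**Figure D2:**
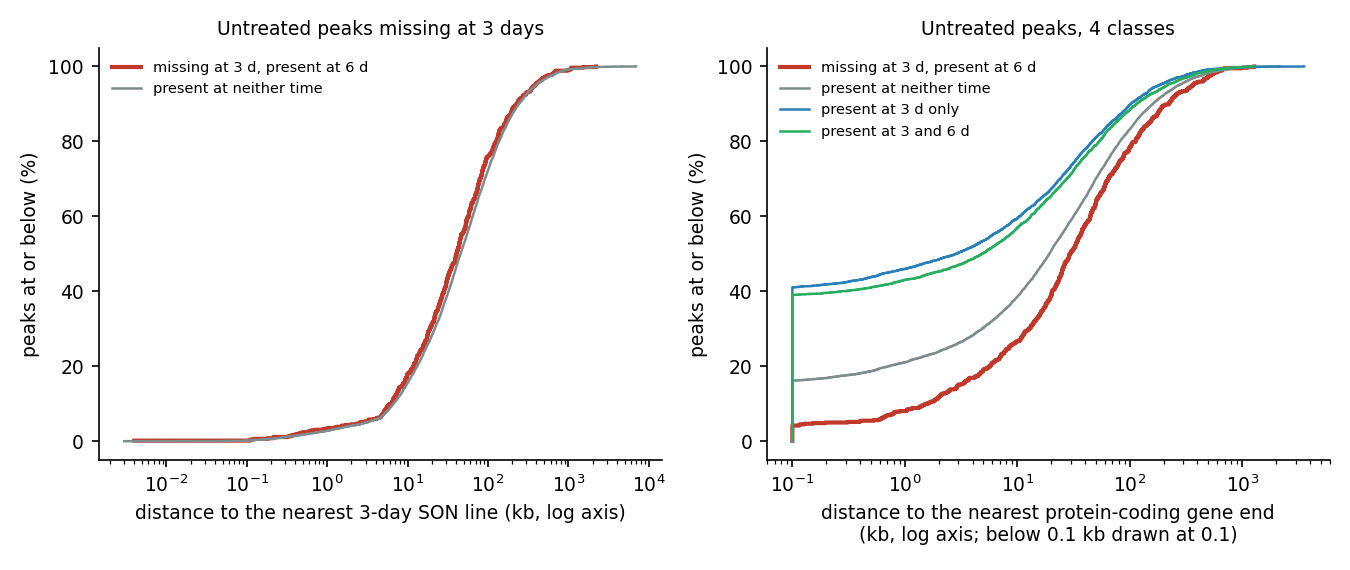
Cumulative share of untreated SON peaks (vertical axis, %) by distance in kb on a log axis, to the nearest 3-day SON line for the 2 classes missing at 3 days (left) and to the nearest protein-coding gene end for all 4 classes (right, distances below 0.1 kb drawn at 0.1). The left curves nearly coincide, with medians of 40.7 and 45.6 kb, and on the right the red curve of the 621 regions is the lowest of the 4, with a median of 29.4 kb.

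The regions lay mostly away from the ends of genes. Of all untreated SON peaks 31.4% lay within 1 kb of an end of a protein-coding gene, and 50 of the 621 regions did (8.05%, 6.03 to 10.5%). The share was 21.1% in peaks present at neither time, 45.9% in peaks present at 3 days and missing at 6, and 43.0% in peaks present at both times. When the other classes were weighted to the untreated strength and width of the regions, their shares were 23.3% ± 0.459, 33.2% ± 0.708 and 13.2% ± 0.765 (counting SE), all above the interval of the regions. Under 1 of 3 stricter lists the difference was lost. With an IDR of at most 0.05 required in each SON list, the rule gave 59 peaks, of which 2 were among the 621, and 28.8% of the 59 lay at a gene end against 28.2% of peaks present at neither time.

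The difference from the other classes was at gene starts. On the chromosomes for which annotated starts were used, 25 of 592 regions lay within 1 kb of a start (4.22%, 2.75 to 6.17%), against 19.4%, 44.0% and 40.5% of the other 3 classes in the same order. Weighted to the strength and width of the regions, the start shares of those classes were 21.5%, 31.2% and 10.4%, all above that interval. Near a 3′ end and no start lay 17 regions (2.87%, 1.68 to 4.56%), against 1.66%, 1.41% and 1.57%. At equal strength and width the shares at 3′ ends were 1.66%, 1.48% and 1.87%, the last inside that interval. Inside protein-coding genes lay 340 regions (54.8%, 50.7 to 58.7%), against 62.6%, 73.1% and 72.2%. At least 10 kb from any protein-coding gene end lay 455 (73.3%, 69.6 to 76.7%), against 61.4%, 40.5% and 43.1%. Weighted to the strength and width of the regions, peaks present at both times came close to them, with 60.6% inside genes and 68.6% at least 10 kb from a gene end. A further 97 regions lay in noncoding genes alone, and 184 (29.6%, 26.1 to 33.4%) lay outside any protein-coding or long noncoding gene, against 26.0% of peaks present at neither time.

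**Figure D3:**
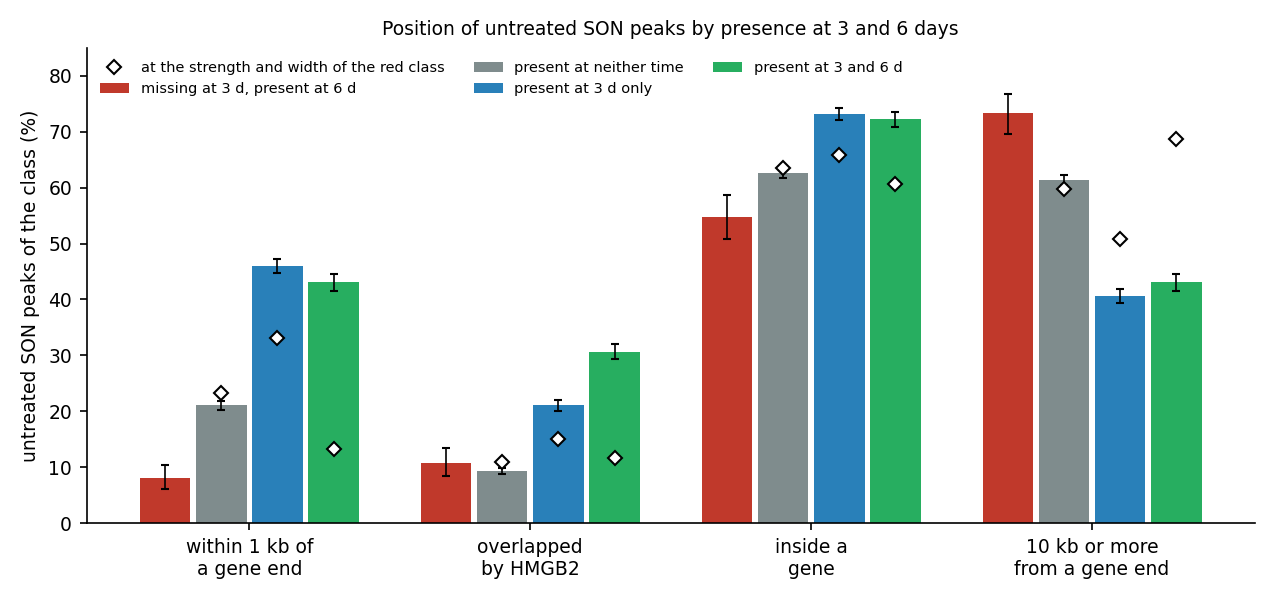
Share of untreated SON peaks (vertical axis, %) within 1 kb of a protein-coding gene end, overlapped by HMGB2, inside a protein-coding gene, or at least 10 kb from any gene end, by class, with 95% exact intervals as bars and, as diamonds, the class weighted to the strength and width of the 621 regions. The red bars of the 621 regions stand at 8.05%, 10.8%, 54.8% and 73.3%.

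The regions within 1 kb of a gene end with the highest mean percentile were over PIH1D1, GJC1, SRSF4, THOC5, TRIOBP and EIF1. PIH1D1 encodes a subunit of the R2TP chaperone complex. Its region on chromosome 19 (49451743 to 49452084) had 23.2 and 25.9 in the untreated replicates and 11.9 and 11.7 at 6 days, met HMGB2, and lay 890 bp from a 3-day line of strength 32.3. GJC1, a gap junction gene, had a region 0.832 kb from an end on chromosome 17 (44794937 to 44795518), with 14.3 in both untreated replicates and 11.1 and 16.9 at 6 days. SRSF4 encodes an SR splicing factor, and its region on chromosome 1 (29146968 to 29147431) lay 0.311 kb from an end, with 14.6 and 17.1 before treatment and 10.9 and 11.7 at 6 days. EIF1 encodes the initiation factor that guards start-codon choice. Its region on chromosome 17 (41689082 to 41689760) lay 124 bp from a 3-day line of strength 62.1, with 24.7 in both untreated replicates and 7.88 and 8.10 at 6 days. For PIH1D1 and EIF1 a strong 3-day peak thus stood beside the region, while for GJC1 the nearest was 86.1 kb away.

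Among the regions, the gene-end share varied with strength and surroundings. It was 8.46%, 8.57%, 4.52%, 7.28% and 20% from the weakest to the strongest untreated class, where the last is 9 of 45 regions (9.58 to 34.6%). In the same strongest class it was 34.0% of peaks present at neither time, 62.0% of those present at 3 days and missing at 6, and 57.3% of those present at both. Of the 21 regions with a 3-day line within 1 kb, 8 lay at a gene end (38.1%, 18.1 to 61.6%), and of the 149 regions at least 100 kb from any 3-day line, 10 did (6.71%, 3.27 to 12%). The 6-day strength of the regions hardly moved across these groups, with medians between 7.07 and 7.53 over the 5 untreated classes and between 7.18 and 7.61 over 4 classes of distance to a 3-day line.

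The comparison can also be made from the 6-day list, by a weighting chosen after the data were seen. Of the 621 6-day lines that met the regions, 49 lay within 1 kb of a gene end (7.89%, 5.89 to 10.3%). Of the 4254 that met peaks present at both times 42.9% did, and 36.1% ± 1.06 (counting SE) when weighted to the 6-day strength and width of the lines of the regions. The same share weighted to the untreated strength and width was 13.2%, so the size of this difference depends on the list whose strength is held equal.

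HMGB2 met about as large a share of the regions as of peaks present at neither time, and its share beside peaks present at both times depended on the weighting. Of all untreated SON peaks 16.5% were overlapped by an HMGB2 peak, and 67 of the 621 regions were (10.8%, 8.46 to 13.5%). The share was 9.26% in peaks present at neither time, 21.0% in those present at 3 days and missing at 6, and 30.7% in those present at both times. Weighted to the strength and width of the regions these became 11.0% ± 0.354, 15.1% ± 0.533 and 11.7% ± 0.827 (counting SE), so that the first and the last lay inside the interval of the regions and the second above it. For peaks present at both times this turned with the weighting, since strength alone gave 16.7% and strength with gene density 15.5%, both above the interval. HMGB2 and SON were fixed differently, which cannot be told apart from the target in any comparison of the 2 proteins. The 67 HMGB2 peaks had a median fold enrichment in the authors' list of 4.71, with a range of 2.53 to 14.2, and the 3667 HMGB2 peaks on other untreated SON peaks had a median of 4.51.

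As in the other classes, HMGB2 met a larger share of the regions at gene ends than elsewhere. It met 15 of the 50 regions at a gene end (30%, 17.9 to 44.6%) and 52 of the 571 others (9.11%, 6.88 to 11.8%). The same pair of shares was 18.1% and 6.90% in peaks present at neither time, 28.6% and 14.6% in those present at 3 days and missing at 6, and 44.8% and 20.0% in those present at both times. HMGB2 met 9 of 21 regions with a 3-day line within 1 kb (42.9%, 21.8 to 66.0%), 20 of 90 at 1 to 10 kb (22.2%), 31 of 361 at 10 to 100 kb (8.59%) and 7 of 149 farther away (4.70%, 1.91 to 9.44%). When the 111 regions within 10 kb of a 3-day line were left out, the HMGB2 share of the remaining 510 was 7.45%, which is below the 9.26% of peaks present at neither time. The share was 10.5% from the 6-day lines of the regions (65 of 621), against 24.9% ± 0.931 (counting SE) in the lines of peaks present at both times at equal 6-day strength and width.

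The regions with HMGB2 and the highest mean percentile were those at PIH1D1, BNC2, SLC8A1, EIF1, ID3 and DMPK. The BNC2 region lay inside this zinc finger gene on chromosome 9 (16417130 to 16417531), with 15.4 and 17.5 before treatment, 9.42 and 10.2 at 6 days and an HMGB2 fold of 4.14. SLC8A1 encodes a sodium-calcium exchanger, and its region on chromosome 2 (40103399 to 40103971) had 12.6 and 22.2 before treatment and 17.4 and 9.83 at 6 days, values that differed between replicates at both times. A region 2.79 kb from ID3, which encodes an inhibitor of basic helix-loop-helix factors, on chromosome 1 (23562289 to 23562709) had 18.1 and 30.6 before treatment, 11.8 and 8.37 at 6 days and the highest HMGB2 fold of these 6, 8.15. DMPK, the myotonic dystrophy kinase gene, had a region 0.62 kb from an end on chromosome 19 (45770338 to 45770840), with 14.2 and 10.8 before treatment, 10.4 in both 6-day replicates, and a 3-day line of strength 51.1 at 579 bp.

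The regions were spread over the chromosomes unevenly. On chromosome 19 the rule took 8 of 1044 untreated peaks (0.766%, 0.331 to 1.50%), where the genome-wide share in each strength and width class would give 24.3. On chromosome X it took 2 of 381 (0.525%, 0.0636 to 1.88%), where the same reckoning gives 10.7. On chromosome 4 it took 40 of 935 (4.28%, 3.07 to 5.78%), where the reckoning gives 27.2, and on chromosome 13 it took 22 of 540 (4.07%, 2.57 to 6.10%), where it gives 15.6. These are the chromosomes with the 2 lowest and the 2 highest shares of 23, picked after the values were seen, and the chromosome 13 interval includes the share of the whole genome.

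The share was lower at higher gene density. With the untreated peaks cut into 5 equal classes by the number of protein-coding genes within 500 kb, from fewest to most, the rule took 4.03%, 3.22%, 3.13%, 2.003% and 1.60% of the untreated peaks, with intervals of 3.47 to 4.65% in the first class and 1.25 to 2.01% in the last. Among untreated peaks present at 6 days, the regions were 20.4%, 16.3%, 14.7%, 9.79% and 5.68%. Untreated strength moved with gene density too, with medians of 9.02 in the first class and 11.9 in the last, and its part in this trend was not tested. Within the regions, the gene-end share was 3.35% in the first class and 31.0% in the last, and the HMGB2 share was 6.15% and 29.6%. Weighting the other classes by strength and gene density, in place of strength and width, gave gene-end shares of 19.9% for peaks present at neither time and 19.5% for peaks present at both, still above the 8.05% of the regions.

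**Figure D4:**
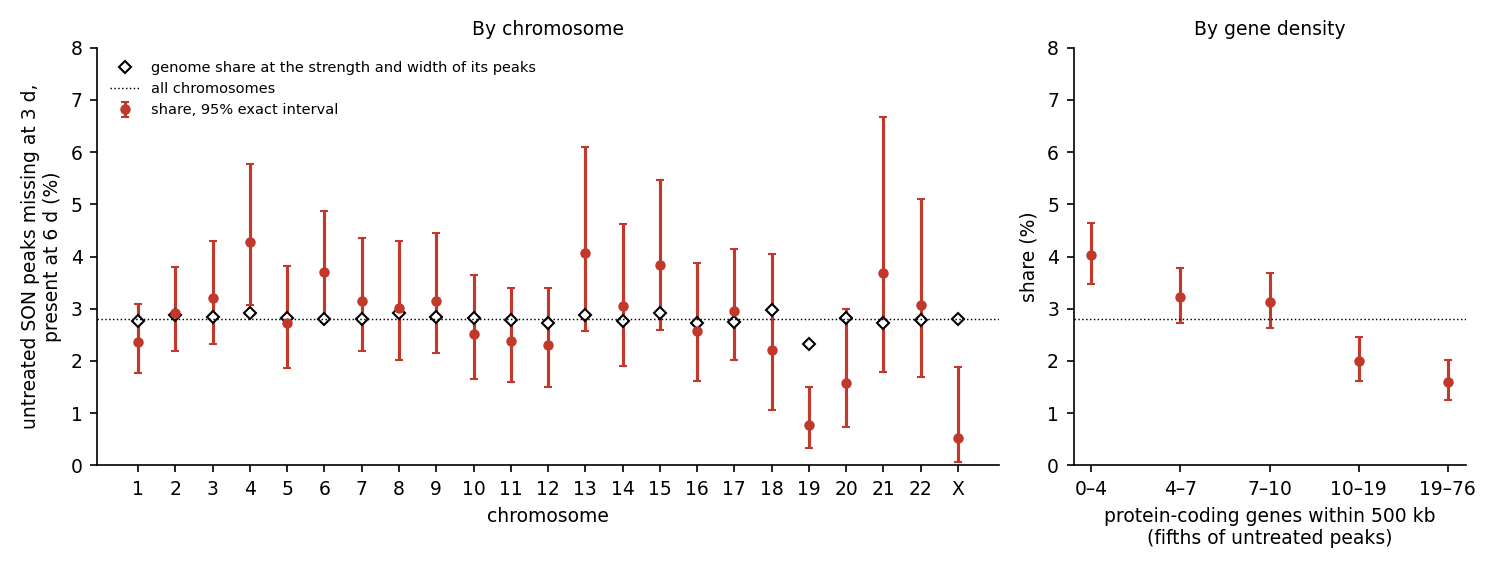
Share of untreated SON peaks that were missing at 3 days and present at 6 (vertical axis, %) by chromosome (left) and by class of the number of protein-coding genes within 500 kb (right), with 95% exact intervals, the genome share at the strength and width of each chromosome's peaks as diamonds, and the share over all chromosomes as a dotted line. Chromosomes 19 and X are lowest at 0.766% and 0.525%, and the share goes from 4.03% to 1.60% with gene density.

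The regions were scattered among other SON peaks, with nearest neighbours of each class near that class's share of the list. They fell in 514 of the 2430 1-Mb bins that held an untreated peak, with 1 region in 418 bins, 2 in 85 and 3 in 11, which was the most in any bin. The nearest untreated neighbour was another of the 621 for 14 regions (2.25%), near the 2.80% that they make up of the list. It was a peak present at neither time for 331 (53.3%), a peak present at 3 days and missing at 6 for 151 (24.3%) and a peak present at both times for 125 (20.1%), where those classes make up 51.8%, 26.3% and 19.1% of the list. The median distance to that neighbour was 18.8 kb.

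Among the bins with 3 regions, those with the most untreated peaks were on chromosome 1 at 201000001 to 202000000 (32 untreated peaks and 9 at 6 days), chromosome 15 at 39000001 to 40000000 (25 and 7) and chromosome 3 at 16000001 to 17000000 (21 and 8). The first holds 17 protein-coding genes, among them PHLDA3, CSRP1 and NAV1. The second holds THBS1, which encodes the matrix protein thrombospondin, and GPR176, and the third holds RFTN1 and PLCL2.

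Of 19974 protein-coding genes, 1.96% (391) carried a region within the gene or within 5 kb, against 57.1% (11401) that carried any untreated SON peak. Of the 391, 251 (64.2%) carried a 3-day peak elsewhere and 140 did not, where 70.2% (8004) of the 11401 genes with an untreated peak carried a 3-day peak. The shares are unlike measures, since by the rule no region is itself present at 3 days, while any untreated peak of the 11401 genes can be. For 66 genes the region was the single untreated peak of the gene. More than 1 region was found at 20 genes, which span 93.2 kb (SOD2) to 1437 kb (MAGI2). PALLD, a gene for an actin-binding protein, carried 3 regions among 15 untreated peaks, of which 10 were present at neither time. ABCC1, an efflux transporter gene, carried 3 among 8. COL5A2, a fibrillar collagen gene, carried 2 among 13, of which 4 were present at both times, and these genes were named after their counts were seen.

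Counted with or without a SON peak, genes of lists relevant to speckles, splicing and senescence carried a region at a share near that of all genes. Of 479 listed genes found in the annotation, 8 carried one (1.67%, 0.724 to 3.26%), beside the 1.96% of all protein-coding genes. Only a gene with an untreated peak can carry a region, and 401 of the 479 had one, against 57.1% of all genes. Among genes with an untreated peak, a region was carried by 8 of 401 listed genes and by 391 of 11401 in all. None was found at 15 nuclear speckle genes, 54 core spliceosome genes, 78 cytosolic ribosomal protein genes, 33 genes of the secretory phenotype and matrix, 20 high mobility group and lamina genes, 19 heat shock genes, 32 proteasome genes, 31 genes of RNA polymerase II and Mediator, or 39 HOX genes. Of the 39 HOX genes 9 carried an untreated peak and 0 a 6-day peak, so none of them could carry a region. Of the 33 secretory and matrix genes 20 carried an untreated peak. For 54 core spliceosome genes a count of 0 allows a share of up to 6.60% by the exact interval. Of those 54 genes, 52 carried an untreated peak, 48 a 3-day peak and 29 a 6-day peak. Of the 78 ribosomal protein genes 75, 62 and 26 did.

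The 8 genes came from 7 lists. Of 21 SR protein and kinase genes SRSF4 carried a region, described above. Of 26 hnRNP genes HNRNPUL1 did, on chromosome 19 (41299688 to 41300061), with 6.84 in both untreated replicates and 9.91 and 11.4 at 6 days. Of 15 CTCF and cohesin genes STAG1, which encodes a cohesin subunit, carried 2. The first lay on chromosome 3 (136343843 to 136344213), with 13.3 in both untreated replicates and 7.13 and 8.96 at 6 days, and the second (136464494 to 136464945) had 14.2 in both and 8.74 and 8.29 at 6 days. STAG1 carried 6 other untreated peaks and kept a 3-day peak.

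Of 25 p53 target genes PHLDA3, an inhibitor of AKT signalling, carried a region 1.96 kb from its end on chromosome 1 (201461870 to 201462320), met by HMGB2, with 7.30 in both untreated replicates and 7.69 in both at 6 days. Of 30 cell cycle genes MCM7, a subunit of the replicative helicase, carried a region over the start it shares with AP4M1 on chromosome 7 (100100553 to 100100907), met by HMGB2 and 422 bp from a 3-day line. Its values were 14.4 in both untreated replicates and 8.14 and 7.52 at 6 days. Of 25 actin and contractile genes VCL, the vinculin gene, carried a region 49.2 kb inside on chromosome 10 (74047312 to 74047698), with 14.98 in both untreated replicates and 10.6 and 10.7 at 6 days.

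Of 16 AP-1 and immediate early genes EGR1 and IER3 carried a region. At EGR1, on chromosome 5 (138469101 to 138469814), the region of 4.65 in both untreated replicates was the single untreated peak of the gene, lay over an end 3.62 kb from the start and 387 bp from a 3-day line, and had 7.18 and 11.4 at 6 days. At IER3, on chromosome 6 (30744199 to 30744672), it had 9.29 in both untreated replicates and 12.5 and 9.95 at 6 days. In the untreated list these regions ranked from the 0.684th percentile (EGR1) to the 73.2nd (VCL), and in the 6-day list from the 25.9th (the first STAG1 region) to the 75.6th (SRSF4), in lists of different length whose ranks show no change.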

How the data were processed

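ChIPmentation peak lists of IMR90 cells were analysed, 1 for each of 4 groups, and the other 2 samples of the 6 in the series were not analysed here. Per the submitters' processing notes, Bowtie2, MACS2, deepTools, bcl2fastq 2.17 and hg38 were used; their order and settings are not given in the sources used here. The deposited SON lists have the 20-column layout of IDR run on 2 replicates and hold −log10 p per replicate, −log10 global IDR and a score that scales it. The deposited HMGB2 list gives fold enrichment, −log10 p, −log10 q and a score, with a q cutoff of 0.03 in the peak names. How the replicates were made, and which control was used for peak calling, is not given in the sources used here.

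Intervals were joined where at least 1 bp overlapped. Shares of the other classes were weighted to the regions over 5 classes of strength by 5 of width. Gene positions came from RefSeq (GRCh38.p14, 19974 protein-coding and 18177 long noncoding genes); starts and upstream sequences were given for 15812 protein-coding genes, and starts on chromosome 8 were not used here. The planned sequence content around summits was not computed, since no genome sequence was used here. Named regions were the 6 highest by untreated strength, by 6-day strength and by mean percentile, the same among regions with HMGB2 and at gene ends, the 3 nearest to the rule's boundary on each side, those at listed genes, and the 3 fullest bins, with ties broken by the number of untreated peaks. Of these, 1 region near the boundary is not reported here. The regions and lists were chosen with earlier results of these data known. Alternatives covered thresholds, overlap, distance, list length, windows and classes. The code was tested on simulated data and used matplotlib 3.10.9, scipy 1.17.1, pandas 2.3.3 and numpy 2.4.6 under Python 3.11.15.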

Additional observations from a re-analysis of the deposited data

How the results depend on the processing

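Of 56 alternatives over the counts, shares and medians, 29 left the value in place (a count within 1.5 times, a share or median within its interval) and 27 moved it. Stricter lists moved most: an IDR of at most 0.05 gave 59 regions (2 of the 621), an HMGB2 share of 22.03%, a gene-end share of 28.8% and a median untreated strength of 20.6. The stronger 50% of each list gave 366 regions (69 of the 621), 16.4%, 15.03% and 15.4. The strongest 5481 lines of each list gave 463 regions (72 of the 621), 22.9%, 22.2% and 19.7. The gene-end share was below that of peaks present at neither time in 9 of 10 alternatives, the IDR being the exception (28.2%; 29.8% and 40.5% in the other 2 stricter lists). The HMGB2 share was above that of peaks present at neither time in 8 of 9, the exception being regions with no 3-day line within 10 kb (7.45%). In each of the 9 the interval of the regions held the share of those peaks, so the tally shows no excess. Weighted to the strength and width of the regions, the share of those peaks was 11.0%, beside 10.8% of the regions. A window of 0.5 kb gave a gene-end share of 5.48%, 5 kb 19%, and starts alone 4.22%. Replicate 1 gave median strengths of 9.79 untreated and 7.95 at 6 days, and replicate 2 gave 10.2 and 7.94. Weighting by strength alone gave 17.5% (HMGB2) and 39.7% (gene end) for peaks present at 3 days and missing at 6, and 16.7% and 22.03% for peaks present at both times. Strength and gene density, classes chosen after seeing the data, gave 9.57% and 19.9% for peaks present at neither time and 15.5% and 19.5% for peaks present at both. The cause of these moves was not tested, except that stricter lists replace most of the regions. No paired analysis was possible because each group has 1 list, and no replicate could be left out. The alternative motif window was not run, since no genome sequence was used here. Depth is unknown, so absence from the 3-day list cannot be told apart from a peak that this list was too shallow to hold. On chromosomes 1 to 22 and X the 3-day list held 11028 lines with a lowest strength of 3.85, against 5481 and 4.21 at 6 days. Presence at 6 days rested for 69.4% of the regions on lines at the largest IDR of that list. Whether that presence would hold in another list was not tested.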

Other observations

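Lines of the 6-day list that met no untreated peak give a further view of SON at 6 days. Of 5481 lines on chromosomes 1 to 22 and X, 431 met neither the untreated nor the 3-day list and 179 met the 3-day list alone. Their median 6-day strengths were 7.12 and 7.74, beside 7.29 for the 618 lines that met an untreated and no 3-day peak. Within 1 kb of a protein-coding gene end lay 3.94% (2.31 to 6.24%) of the 431 and 5.03% (2.32 to 9.33%) of the 179, and 7.77% (5.78 to 10.2%) of the 618. HMGB2 met 3.94% of the 431, 5.59% of the 179 and 10.4% of the 618. Outside chromosomes 1 to 22 and X, the untreated list held 146 lines, of which 0 followed the same rule (exact upper limit 2.49%).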
